A study of Saccharomyces cerevisiae with 28 samples.

Results

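The start of *RDN37-1* is the 5′ end of the gene for the 35S ribosomal precursor RNA in the rDNA of *Saccharomyces cerevisiae*. It was taken as all annotated bases of *RDN37-1* that the deposited depth table covers. These are 433 of the table's 2001 bases, chromosome XII 458000 to 458432 of sacCer3, and *RDN37-1* is 1 of 2 genes on the table, the other being *RDN5-1*, which encodes 5S RNA and runs on the plus strand from 459676 to 459796. *RDN37-1* runs on the minus strand from 458432 to 451575, so base 1 of the gene is position 458432 and the table ends at base 433. All 433 bases are exonic, noncoding and lie within ETS1-1 (457733 to 458432), the external transcribed spacer at the 5′ end of the precursor. Levels below are read depths per base divided by the mean depth of the same library over the whole table, so that 1 is the table mean.

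RNA polymerase I transcribes the 35S gene in many tandem copies, and the precursor is cut into the RNA of the small ribosomal subunit and the large-subunit RNAs other than 5S. The external transcribed spacer is removed during processing and is not part of the ribosome. In yeast, only some of the copies are transcribed at a time. Transcribed copies carry dense polymerases and the HMG-box protein Hmo1 with few nucleosomes, whereas silent copies are packed in nucleosomes, and a depth profile averages over both kinds. Sir2 is a histone deacetylase that silences RNA polymerase II transcription in the rDNA spacers, and Mcm2 is a subunit of the Mcm2-7 helicase loaded at the origin (rARS) in the spacer *IGS2* next to the gene start.

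The study asked how Sir2 affects helicase positions at the rARS, and 17 of its libraries were used here. MNase-seq, in which nuclease added to crosslinked nuclei leaves protected DNA, covered 6 libraries of haploid MATa cells. They were WT and *sir2*Δ::KanMx strains with *hml*α::HygR and the *his3*, *leu2*, *met15* and *ura3* markers, each in G1 (alpha factor) and G2 (nocodazole), and a temperature-sensitive *cdc6-1* strain, which cannot load Mcm2-7 at high temperature, arrested in G1 at 23° and at 37°. Mcm2-ChEC, in which calcium activates MNase fused to Mcm2, covered 7 libraries of alpha factor-arrested cells, all with *MCM2*-3xFLAG-MNase. Of these, 3 came from native rDNA (2 WT and 1 *sir2*Δ::LEU2, each with *hml*α::HygR). The other 4 came from strains whose array was re-expanded after a Fob1 plasmid was introduced and lost. All expanded strains, whatever their *SIR2* genotype, carry *fob1*Δ::HIS3 and a HygR marker beside the array and have *ade2*, *ura3*, *his3*, *trp1*, *leu2* and *can1* alleles. The *sir2*Δ::LEU2 ones also carry *hml*αΔ::NAT. Calcium was given for 30 s or 60 s by their library names, 1 *SIR2* and 1 *sir2* library at each time. Sonicated DNA of 4 libraries, from expanded *SIR2* and *sir2* cells without the tag, sorted from log-phase cultures into G1 and S phase, served as the profile without footprints. MNase-seq and native ChEC strains are S288C, and WT and *sir2* MNase-seq share their markers with native ChEC. Sonicated DNA shares its background with expanded ChEC only, from which it differs in the Mcm2 tag and in arrest.

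The gene start in its own orientation is printed here because depth there set native apart from expanded rDNA, and 4 stretches of 50 bases are shown because the depth of all 13 MNase-seq and ChEC libraries rose and fell at their ends. At stretch 4 the fall was slight in native *sir2* ChEC and in the larger native WT ChEC library. The sequences are RefSeq R64 (sacCer3), minus strand, 5′ to 3′. Capitals mark bases 1 to 10 in the first line and the 50-base stretch in the others.
Gene start, bases 1 to 60, chrXII:458373-458432: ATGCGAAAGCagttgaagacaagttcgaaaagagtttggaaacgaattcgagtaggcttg
Stretch 1, bases 91 to 140, shown with flanks as chrXII:458288-458347: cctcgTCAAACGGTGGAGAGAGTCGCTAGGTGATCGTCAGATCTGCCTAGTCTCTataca
Stretch 2, bases 143 to 192, shown with flanks as chrXII:458236-458295: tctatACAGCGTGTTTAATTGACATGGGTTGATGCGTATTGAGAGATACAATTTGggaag
Stretch 3, bases 252 to 301, shown with flanks as chrXII:458127-458186: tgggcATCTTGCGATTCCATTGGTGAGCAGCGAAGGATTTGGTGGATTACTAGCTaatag
Stretch 4, bases 305 to 354, shown with flanks as chrXII:458074-458133: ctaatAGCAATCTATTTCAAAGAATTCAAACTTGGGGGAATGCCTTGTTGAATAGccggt

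The 433 bases are 56.8% A+T, and the first, second and last of 3 equal parts are 55.6%, 56.2% and 58.6% A+T. The reference chromosome XII holds 2 copies of this sequence, since *RDN37-2* (460712 to 467569) starts with the same bases. How reads that fit both copies were placed is not given in the sources used here, so the depth is that of the repeat rather than of 1 copy.

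The MNase-seq libraries held 759788 to 2233018 reads over the table, the ChEC libraries 689392 to 5022993 and the sonicated libraries 24177 to 85504, taking 1 read as 50 bases of depth. In the gene start this left 5080 to 17003 reads for sonicated DNA and 29376 or more for each nuclease library. In 3 sonicated libraries the falls of the profile followed its rises at 37 as well as at 50 bases, with correlations of 0.176 to 0.214 at 37 and of 0.160 to 0.174 at 50, so their read numbers are approximate. The sonicated *SIR2* library from G1 stood apart in another way. Across the gene start, its base-to-base steps had a correlation of 0.64 with the mean steps of the MNase-seq libraries, against 0.36, 0.05 and 0.00 in *sir2* G1, *sir2* S and *SIR2* S. Relative to the mean depths of the gene start, the slope of its steps on those of MNase-seq was 0.153. The profile of this library is therefore not free of the nuclease pattern, and results that its removal changes are also given without it. The *sir2* G1 library followed the same steps more weakly, with a slope of 0.044, and was kept throughout.

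The gene start held more of the MNase-seq depth than an even profile would give, and less of the ChEC depth. An even profile would place 21.6% of the depth there. In MNase-seq the share was 34.0% in WT G1, 36.3% in WT G2, 25.1% in *sir2* G1, 26.3% in *sir2* G2, 40.6% in *cdc6-1* at 23° and 43.0% at 37°. In ChEC of native rDNA it was 5.16% and 4.96% in the larger and the smaller WT library and 2.21% in *sir2*. In ChEC of expanded rDNA it was 7.10% (30 s) and 5.98% (60 s) in *SIR2*, and 7.71% (30 s) and 5.77% (60 s) in *sir2*. No MNase-seq library overlapped a ChEC library or a sonicated one. In sonicated *SIR2* DNA the share was 21.0% (95% Wilson interval 20.5% to 21.5%) in G1 and 20.5% in S. In sonicated *sir2* DNA it was 21.0% in G1 and 19.9% in S. All of these were below the even share of 21.6%. Among the nuclease libraries the widest such interval was 40.5% to 40.7%, in *cdc6-1* at 23°, and all these intervals cover counting error only. Columns of expanded strains, sonicated and ChEC, hold almost no depth from position 459907 on. Up to that position an even share is 22.7%, which the sonicated shares fall further below. Shares of native and expanded libraries thus rest on unlike totals. On a total ending with the 5S gene, chosen after seeing the data, MNase-seq exceeded sonicated DNA by 14.7 points and ChEC by 30.4.

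**Figure D1:**
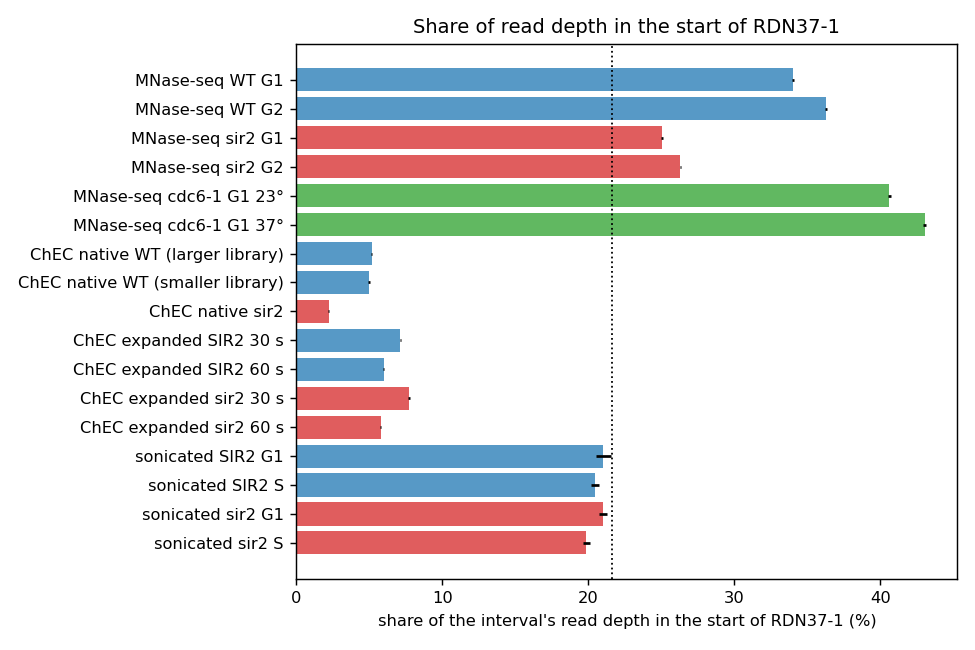
Share of each library's read depth in the start of *RDN37-1*, in percent of the depth over all 2001 bases, for 6 MNase-seq, 7 Mcm2-ChEC and 4 sonicated libraries. Blue bars are WT or *SIR2*, red bars *sir2* and green bars *cdc6-1*, error bars are 95% Wilson intervals and the dotted line is the even share of 21.6%. MNase-seq bars end right of the line, ChEC bars far left of it and sonicated bars just left of it.

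In expanded strains the share in ChEC minus that in sonicated DNA was -13.9 percentage points (6.64% ± 0.92 against 20.6% ± 0.54, SD, n = 4 each). An exact two-sided permutation test gave p = 0.0286, the smallest this design allows, and adjusted p = 0.043 over the 11 tests made here (Benjamini-Hochberg). The MNase-seq share was 13.6 points higher than that of sonicated DNA (34.2% ± 7.3, SD, n = 6; exact p = 0.0095, adjusted p = 0.035). It was 28.7 points higher than that of ChEC (5.55% ± 1.78, SD, n = 7; exact p = 0.0012, adjusted p = 0.013). Without the sonicated *SIR2* library from G1 the differences from sonicated DNA were -13.8 for ChEC and 13.8 for MNase-seq. With 4 against 3 libraries the former could not pass the threshold of 0.05. These p-values measure the spread between libraries, which may be technical, since most strains gave 2 libraries. With the libraries of a strain averaged, none of these 3 differences passed (exact permutation p = 0.33, 0.2 and 0.057, adjusted p = 0.46, 0.37 and 0.16), in designs of few strains.

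Part of each share is set by how much of the depth the origin region takes. When the bases from 170 left to 470 right of the rARS were left out of the total, an even share became 31.8%. The 7 ChEC libraries then held 8.21% to 21.9% in the gene start, still less than the 32.0% to 33.3% of sonicated DNA. When the spacer between the gene and this region was left out as well, native WT ChEC (53.2% and 55.4%) was above sonicated DNA (48.2% to 49.97%), while the other 5 ChEC libraries stayed below it (17.4% to 41.8%). With only the origin region left out, WT MNase-seq held 46.9% in G1 and 46.1% in G2, and *cdc6-1* held 53.4% at 23° and 54.8% at 37°. The *sir2* MNase-seq libraries, at 32.6% in G1 and 33.0% in G2, came to lie within the range of sonicated DNA. The difference between MNase-seq and sonicated DNA was 11.6 points on this total and did not pass the test (exact p = 0.0857, adjusted p = 0.118).

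In MNase-seq, the share was lower in *sir2* than in WT in both arrests. The ratio of *sir2* to WT was 0.737 in G1 (95% counting interval 0.734 to 0.739) and 0.725 in G2 (0.723 to 0.727). Without the origin region it was 0.695 and 0.715. Each genotype had 1 library per arrest, so the difference has no replicate check. The mean depth of the gene start was 69818 reads per base in WT G1 and 59097 in *sir2* G1, whereas the whole table held more reads in *sir2*.

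The arrests differed less. The share in G1 was 0.938 times that in G2 in WT (0.935 to 0.940) and 0.953 times in *sir2* (0.95 to 0.956), 1 library each. Without the origin region, these ratios became 1.02 and 0.988, so the direction in WT turned with the total used. By the library names, 7.5 U of MNase was used in G1 and 3.75 U in G2, so that the arrest and the amount of nuclease cannot be told apart. In *cdc6-1*, where both libraries name 7.5 U, the share at 37° was 1.06 times that at 23° (1.056 to 1.063), and 1.03 times without the origin region. The cultures at 23° spent longer in alpha factor than those at 37°, and temperature and time of arrest cannot be told apart.

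In ChEC, the *sir2* library was low in native rDNA and the genotypes overlapped in expanded rDNA. Over both backgrounds the *sir2* minus *SIR2* difference was -1.33 points (exact permutation test within backgrounds, p = 0.33, adjusted p = 0.41), in a design of 18 arrangements whose smallest p is 0.0556, so that it could not pass. Without the origin region and the spacer in the total, the difference was -19.9 points (exact permutation p = 0.11, adjusted p = 0.14). The native *sir2* library was low, at 0.436 times the mean of the 2 WT libraries (counting interval 0.431 to 0.441). Only the smaller WT library has a name that reads as 60 s of calcium. Those of the larger WT and the *sir2* library give no clear time, so calcium time may differ between them. The expanded libraries did not share this order, since *sir2* was above *SIR2* at 30 s and below it at 60 s. Without the native *sir2* library the difference was 0.198 points in the opposite direction. In both expanded genotypes the share was lower at 60 s than at 30 s.

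The 5S gene *RDN5-1*, transcribed by RNA polymerase III, lies on the other side of the rARS and gives a second transcribed region in the same libraries. In MNase-seq, the level was 1.57 in the gene start against 0.530 in the 5S gene in WT G1, and 1.68 against 0.548 in WT G2. It was 1.16 against 1.06 in *sir2* G1, and 1.22 against 0.925 in *sir2* G2. In *cdc6-1* it was 1.88 against 0.650 at 23° and 1.99 against 0.535 at 37°. The gene start was above the 5S gene in 6 of 6 libraries, by 0.873 on average (exact sign-flip test, p = 0.0313, adjusted p = 0.043, the smallest p for 6 pairs), and the gap was narrowest in *sir2*. This p-value treats libraries of the same strain as independent, and strain averages were not tested.

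In ChEC the order of the 2 genes was not the same in all libraries. The native WT levels were 0.238 against 0.125 in the larger library and 0.229 against 0.111 in the smaller, with the gene start higher. In native *sir2* the gene start was at 0.102 and the 5S gene at 0.314. In expanded rDNA the 5S gene was higher in all 4 libraries, at 0.368 (30 s) and 0.299 (60 s) in *SIR2* and 0.480 and 0.354 in *sir2*, beside 0.328, 0.276, 0.356 and 0.267 in the gene start. Over the 7 libraries the mean difference was -0.04 and did not pass the test (exact sign-flip test, p = 0.42, adjusted p = 0.46).

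As a ratio of gene start to 5S gene, which no longer depends on the total, every *sir2* nuclease library was below each *SIR2* library of its assay and background. In MNase-seq the ratio was 2.97 and 3.06 in WT against 1.09 and 1.31 in *sir2*. In native ChEC it was 1.90 and 2.07 against 0.324, and in expanded ChEC 0.892 and 0.923 against 0.742 and 0.752. In sonicated DNA it was 1.06 and 1.05 in *SIR2* against 1.11 and 1.00 in *sir2*, and the genotypes overlapped. This ratio was compared after its values were seen and is given without a test.

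**Figure D2:**
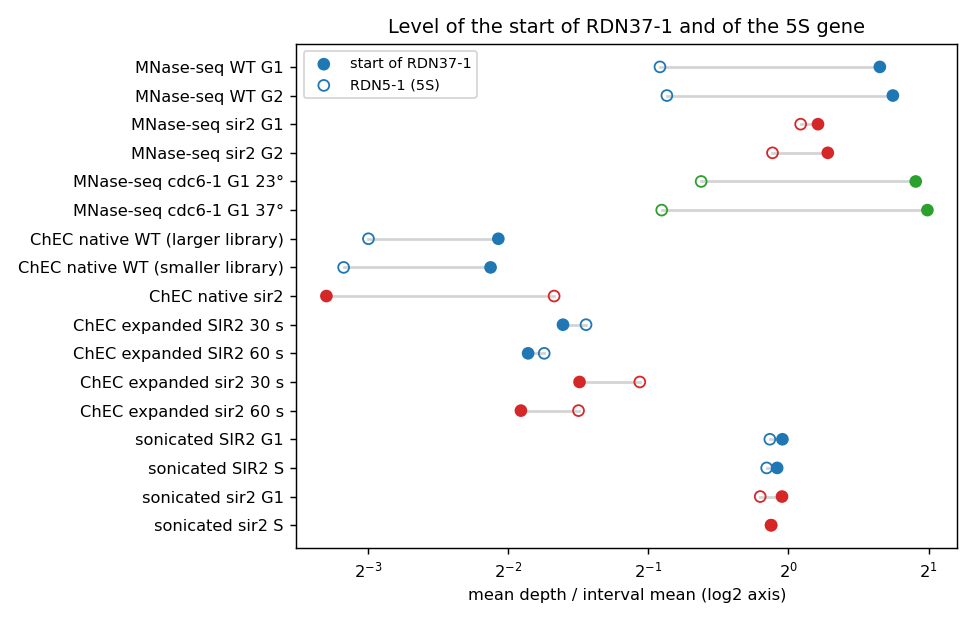
Mean depth of the start of *RDN37-1* (filled circles) and of the 5S gene (open circles) in each library, relative to the table mean, on a log2 axis. Blue is WT or *SIR2*, red *sir2* and green *cdc6-1*, and a grey line joins the 2 values of a library. The filled circle is right of the open one in the 6 MNase-seq libraries and in native WT ChEC, and left of it in native *sir2* and all 4 expanded ChEC libraries. In the sonicated *sir2* S library the circles coincide.

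Depth along the gene start was uneven in both nuclease assays. The coefficient of variation across its 433 bases was 26.0% to 30.8% in MNase-seq, 36.4% to 48.4% in native ChEC, 19.6% to 25.9% in expanded ChEC and 5.17% to 6.66% in sonicated DNA. Counting error alone would give 2.26% to 4.13% in the sonicated libraries and at most 1.72% in the others. In expanded strains the value was 16.7 points higher in ChEC than in sonicated DNA (22.4% against 5.74%, exact permutation p = 0.0286, adjusted p = 0.043). MNase-seq was 22.7 points above sonicated DNA (28.4%, exact permutation p = 0.0095, adjusted p = 0.035). Without the sonicated *SIR2* library from G1 these differences were 17.0 and 23.0 points. The difference of MNase-seq from all ChEC libraries was -3.02 points and did not pass the test (exact permutation p = 0.55, adjusted p = 0.55), with the native ChEC libraries above and the expanded ones below MNase-seq.

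The first part of the gene start was deeper than its last part in every library. The level in bases 1 to 144 exceeded that in bases 289 to 433 by 0.16 in MNase-seq (6 of 6 libraries, exact sign-flip p = 0.0313, adjusted p = 0.043) and by 0.106 in ChEC (7 of 7 libraries, exact sign-flip p = 0.0156, adjusted p = 0.043). Both p-values treat libraries of the same strain as independent, and strain averages were not tested. With each base divided by the sonicated profile, the difference in MNase-seq was 0.073, and in ChEC 0.099. The last part held 0.599 to 0.715 times the depth of the first in the 7 ChEC libraries and 0.871 to 0.937 times in MNase-seq. Sonicated DNA gave 0.904 to 0.953 (0.914 to 0.953 without *SIR2* G1), which overlaps MNase-seq, so this fall in MNase-seq was not larger than that of sonicated DNA in all libraries. The middle part, bases 145 to 288, was the highest of the 3 in all 6 MNase-seq libraries and in native *sir2* ChEC, whereas the first part was highest in the other 6 ChEC libraries.

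**Figure D3:**
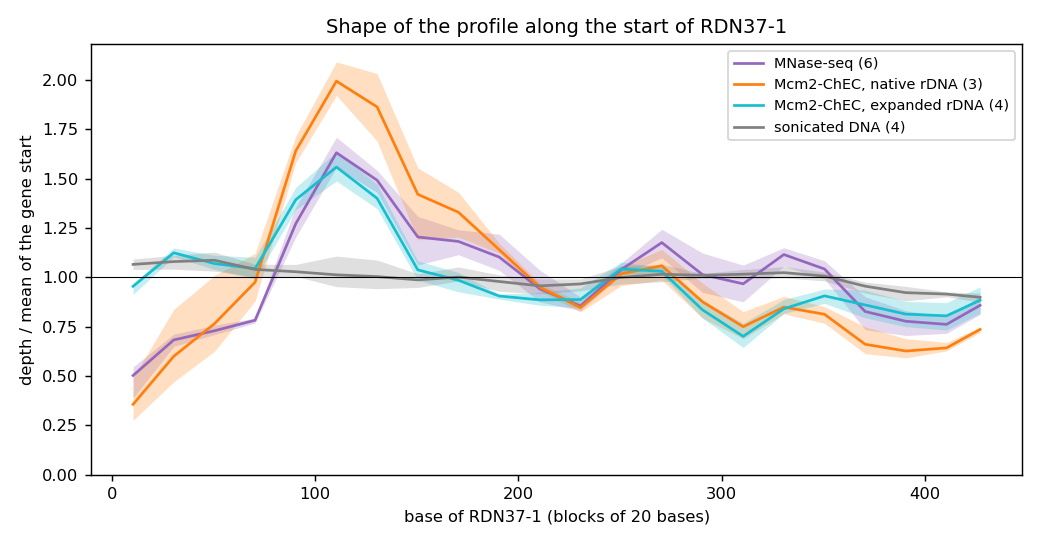
Depth in blocks of 20 bases along the start of *RDN37-1*, divided by the mean of the gene start, against the base of the gene. Lines are means over the libraries of each set, with the number of libraries in brackets, and bands run from the lowest to the highest library. The MNase-seq and both ChEC lines have their summit in the same block, which holds base 114. The first block is low in MNase-seq and native ChEC and near 1 in expanded ChEC and sonicated DNA.

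The highest depth of the gene start lay about 100 bases inside it in all 13 nuclease libraries. Smoothed over 11 bases, the maximum was at base 114 in each of the 6 MNase-seq libraries and at base 98 in the 4 expanded ChEC libraries. In native ChEC it was at base 126 in the larger WT library, 98 in the smaller and 116 in *sir2*. All these bases are within stretch 1. The level at the maximum was 2.49 in WT G1, 2.75 in WT G2, 1.93 in *sir2* G1, 1.99 in *sir2* G2, 3.25 in *cdc6-1* at 23° and 3.36 at 37°. In ChEC it was 0.205 to 0.567. The maximum was 3.47 to 4.68 times the lowest smoothed depth in MNase-seq, 4.86 to 8.45 times in native ChEC, 2.04 to 2.49 times in expanded ChEC and 1.2 to 1.29 times in sonicated DNA. In 3 sonicated libraries the maximum was at bases 45 to 49, but in *SIR2* G1 it was at base 125, inside stretch 1.

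The first bases of the gene separated native from expanded rDNA. Bases 1 to 50 held 0.199, 0.375 and 0.205 times the maximum in native ChEC (larger WT, smaller WT and *sir2*) and 0.323 to 0.406 times in MNase-seq. They held 0.611 to 0.669 times the maximum in expanded ChEC and 0.931 to 0.986 times in sonicated DNA (0.970 or more without *SIR2* G1). The lowest smoothed depth was at base 1 in the 3 native ChEC libraries and at bases 11 to 15 in MNase-seq, whereas in expanded ChEC it was at bases 303 to 405. MNase-seq and native ChEC thus had their lowest depth in bases 1 to 15, and the expanded strains did not. No MNase-seq library of an expanded strain was analysed. Expanded strains differ from native ones in *FOB1*, strain background, an array rebuilt by expansion and the reference used for mapping, among others. By the paper's strain list, rDNA copy number was lower in the expanded *SIR2* strains than in the native ones. It also differed among the expanded strains. The paper also reports a diffuse and fragmented nucleolus in a strain with expanded rDNA. Among the libraries used here these differences cannot be told apart. The series also holds ChEC libraries of *fob1* strains with native rDNA, which were not used here.

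Across the boundary with the spacer, depth rose into the gene in native ChEC. Bases 1 to 50 held 2.75, 2.24 and 1.87 times the depth of the 50 bases upstream in the larger WT, the smaller WT and the *sir2* library. In expanded ChEC this ratio was 0.927 to 1.01 and in sonicated DNA 0.977 to 1.04. In MNase-seq it was 1.24 and 1.09 in WT (G1 and G2), 0.980 and 0.888 in *sir2*, and 1.92 and 1.32 in *cdc6-1* (23° and 37°). The *sir2* libraries were thus the only MNase-seq libraries with less depth inside the gene than before it.

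**Figure D4:**
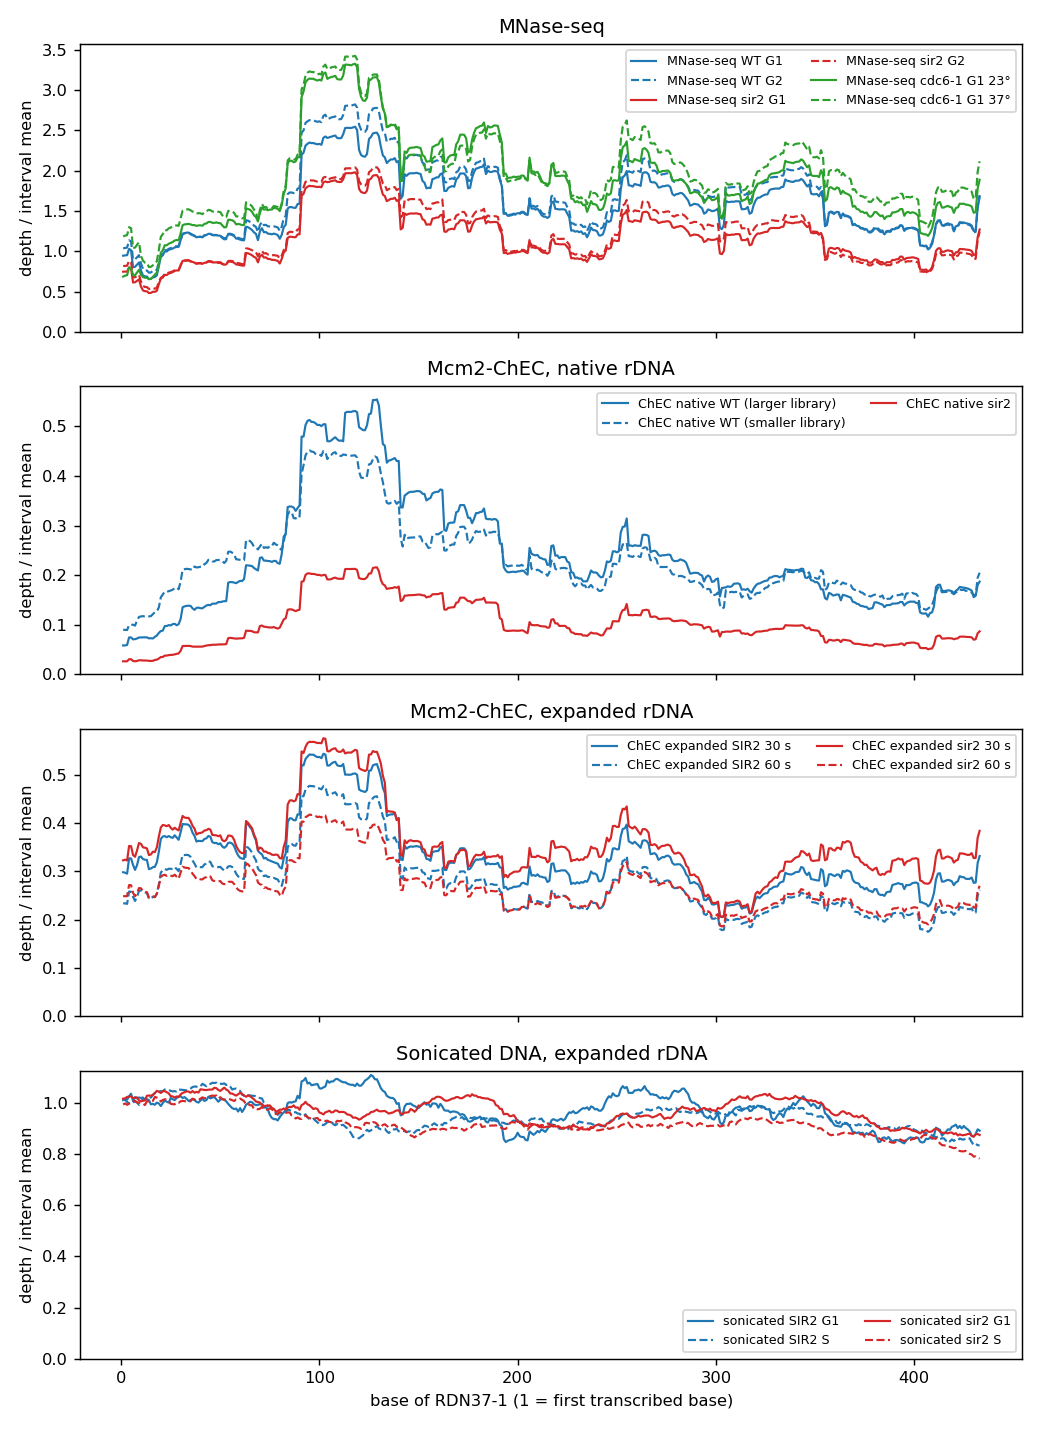
Read depth at each base of the start of *RDN37-1*, divided by the mean of the library over the table, for MNase-seq, native ChEC, expanded ChEC and sonicated DNA, each on its own vertical axis from 0. Line colours are blue for WT or *SIR2*, red for *sir2* and green for *cdc6-1*, and line styles are given in the panels. The block of high depth at bases 91 to 140 and smaller ones further in are shared by the 3 upper panels, and sonicated DNA, smoothed over 11 bases, runs from 0.791 to 1.09.

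The unsmoothed profile was made of steps. Of the 5 sharpest rises and 5 sharpest falls of the mean MNase-seq depth, each had the same sign in 6 of 6 MNase-seq and 7 of 7 ChEC libraries. These 10 were chosen on the mean of the same MNase-seq libraries, so their agreement in that assay was largely set by the choice. In sonicated DNA, 2 to 4 of 4 libraries had the same sign, all 4 at both ends of stretch 3 and at the inner end of stretch 2. Of the 10 rises and falls, 8 paired up at the read length into the 4 stretches printed above, as a pile of reads that begin or end at 1 base would. The other 2 were a rise between bases 163 and 162, whose step 50 bases away (-0.10) was not among the 5 sharpest falls, and a fall between bases 432 and 431, at the edge of the table. Since a base counts only where a sequenced end covers it, the depth does not say which end of a stretch is the nuclease cut.

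Stretch 1 had the largest steps. Moving toward base 1, the mean MNase-seq level rose by 0.497 at its inner end and fell by 0.636 at its outer end. Relative to the mean of the gene start, the rise was 0.291 to 0.338 in the 6 MNase-seq libraries, 0.286 to 0.394 in native ChEC and 0.210 to 0.280 in expanded ChEC. In sonicated DNA it was between -0.002 and 0.049, with the highest value in *SIR2* G1.

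The rise at stretch 2 was 0.189 to 0.221 times the mean of the gene start in MNase-seq, 0.179 to 0.207 in native ChEC and 0.122 to 0.130 in expanded ChEC. At stretch 3 it was 0.133 to 0.176, 0.109 to 0.152 and 0.081 to 0.094. At stretch 4 it was 0.173 to 0.224, 0.074 to 0.159 and 0.083 to 0.105. On the same scale, the fall at the outer end of stretch 4 was -0.193 to -0.156 in MNase-seq and -0.087 to -0.076 in expanded ChEC. In native ChEC this fall was -0.152 in the smaller WT library, but -0.004 in the larger WT and -0.008 in the *sir2* library. The steps of expanded ChEC were smaller than those of MNase-seq in relation to the local mean at each of the 4 stretches, where no libraries of the 2 sets overlapped. The stretches were chosen on MNase-seq, which favours larger steps in that assay. Over all bases of the gene start, the slope of the steps on those of MNase-seq, relative to the local means, was 0.694 to 0.789 in expanded and 0.893 to 1.08 in native ChEC. The 4 bases around the 10 boundaries were 50% A+T, against 56.9% on average for all such positions in the gene start, and at none of the 10 were all 4 bases A or T. MNase is known to cut A+T-rich DNA more readily, and these counts are too few for a comparison.

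Maxima further into the gene recurred as well. Those near bases 183, 260 and 340 were found at bases 176 to 185, 257 to 265 and 339 to 340 in all 6 MNase-seq and all 3 native ChEC libraries. In expanded ChEC there were maxima at bases 253 to 258 in all 4 libraries and at base 340 in 3, but at base 148 rather than near base 183. Sonicated DNA had shallow maxima in the same places in part, at bases 184 and 258 in *SIR2* G1, 178 and 256 in *sir2* G1 and 257 in *sir2* S, at 0.964 to 1.08 times its mean. In WT G1 the smoothed level was 2.49 at base 114, 2.01 at base 184, 1.89 at base 265, 1.87 at base 340 and 1.33 at base 416. From base 114 inward, each maximum was lower than the one before it. In *sir2* this order turned at the middle maxima, with 1.38 at base 183 and 1.42 at base 264 in G1, and 1.47 at base 183 and 1.55 at base 264 in G2. In WT G2 these maxima were almost equal, at 2.08 (base 183) and 2.05 (base 260).

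Profiles along the 433 bases were alike within a set and between the nuclease assays of native rDNA. As a description across bases, which are not independent since a read covers 50 of them, Pearson's r between pairs of libraries was 0.928 to 0.995 within MNase-seq, 0.914 to 0.988 within native ChEC and 0.945 to 0.994 within expanded ChEC. MNase-seq and native ChEC gave 0.798 to 0.956, although one used added nuclease and the other nuclease tethered to Mcm2. MNase-seq and expanded ChEC gave 0.536 to 0.712. MNase-seq and sonicated DNA gave -0.43 to 0.58, or -0.43 to 0.085 without *SIR2* G1. The mean profiles of native ChEC, expanded ChEC and MNase-seq matched best without any shift. There r was 0.80 for expanded with native ChEC, 0.91 for native ChEC with MNase-seq and 0.63 for expanded ChEC with MNase-seq. What the modified reference of the expanded libraries changes in the depth was not tested.

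In native rDNA the ratio of *sir2* to WT was below 1 all along the gene start, whereas the other ratios crossed 1 within it. In blocks of 20 bases, the ratio of *sir2* to WT in MNase-seq was below 1 in 22 of 22 blocks, between 0.680 and 0.782 in G1 and between 0.661 and 0.779 in G2. In native ChEC it was also below 1 in 22 of 22 blocks, lowest at bases 1 to 20 (0.304) and highest at bases 281 to 300 (0.510). Expanded ChEC did not share this order. At 30 s *sir2* was above *SIR2* in every block, with levels of 0.345 against 0.318 at bases 1 to 20. At 60 s *sir2* was above *SIR2* at bases 1 to 20 (0.258 against 0.252) and below it at bases 21 to 40 (0.294 against 0.314). The ratio of G1 to G2 stayed between 0.886 and 1.00 in WT and between 0.882 and 1.05 in *sir2*. In *cdc6-1* the ratio of 37° to 23° was highest at bases 1 to 20 (1.40), lowest at bases 161 to 180 (0.951) and above 1 in 18 of 22 blocks. Each of these ratios compares single libraries, except that native ChEC has 2 WT libraries, and none has a test.

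**Figure D5:**
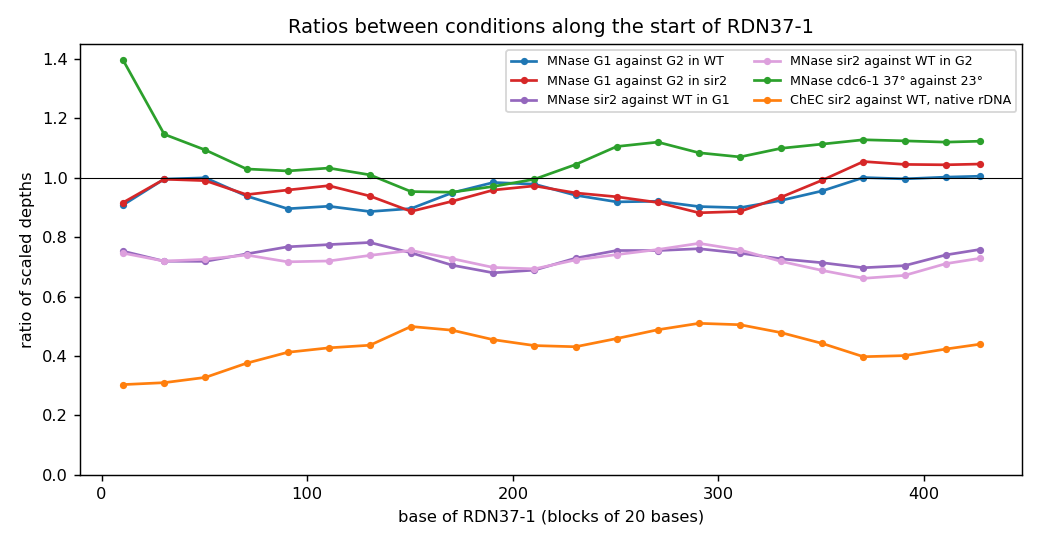
Ratios of scaled depth between conditions in native rDNA, in blocks of 20 bases along the start of *RDN37-1*, against the base of the gene. A line at 1 marks equal depth, and expanded ChEC is not drawn. Both *sir2* against WT lines of MNase-seq lie between 0.661 and 0.782, that of native ChEC between 0.304 and 0.510, and the *cdc6-1* line is highest in the first block, at 1.40.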

How the data were processed

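The authors sequenced 50 bases from both ends of each fragment, aligned them with GSNAP and deposited 1 table of signal, the read coverage at each of 2001 bases of chromosome XII, unscaled and without selection of fragment sizes. The submitters' processing notes also name Picard, bedtools and sacCer3, and versions are not given in the sources used here. Columns of expanded strains name a modified chromosome XII reference, and their depth falls to almost 0 from base 459907 on. Of 28 columns, 17 were used. The other 11 come from strains with a terminator or other strains and were not used here.

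Columns were matched to samples by assay, genotype, phase and strain number. Where 2 libraries of a group could not be told apart, they were kept as replicates without a number and are described by size or calcium time. The gene's members and the lists were chosen with earlier results of these data known. By a fixed rule, the text names *RDN37-1* and *RDN5-1*, 3 equal parts of the gene start, bases of highest and lowest depth, maxima of depth smoothed over 11 bases at least 50 bases apart, and the 5 sharpest rises and falls.

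Each depth was divided by the library's total. Reads were taken as summed depth over 50, with 95% intervals (Wilson for shares, log-normal for ratios) that cover counting error only. Exact two-sided permutation tests compared shares and coefficients of variation between libraries, and exact sign-flip permutation tests compared regions within libraries. The 11 p-values were adjusted by Benjamini-Hochberg with a threshold of 0.05, and scripts were tested on simulated data. Alternatives changed the total, trimmed 50 bases, subtracted the lowest depth, divided by the sonicated profile, averaged libraries of 1 strain or left out each library. The total up to the end of the 5S gene was added after seeing the data. RefSeq R64 gave sequences and annotation. Tests used scipy 1.17.1 under Python 3.11.15, tables pandas 2.3.3 and numpy 2.4.6, and figures matplotlib 3.10.9.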

Additional observations from a re-analysis of the deposited data

How the results depend on the processing

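Of the alternative values, 135 were kept, 34 no longer passed the threshold, 9 values without a test moved and 2 changed direction. Kept means the same direction and side of the threshold or, without a test, a value within its counting interval or SD. The coefficient of variation does not depend on the total, so changed totals could not alter it. The ChEC comparison of genotypes could not pass the threshold in any setting. With libraries of 1 strain averaged, no design could pass the adjusted threshold, and the share differed by -13.9 points between ChEC and sonicated DNA, 13.6 between MNase-seq and sonicated DNA and 29.1 between MNase-seq and ChEC, and the coefficient of variation by 16.7 and 22.7 points from sonicated DNA. Without the origin region in the total, the share of MNase-seq exceeded that of sonicated DNA by 11.6 points (exact permutation test, adjusted p = 0.118). The ratios of shares became 1.02 for G1 to G2 in WT, the opposite direction, 0.988 in *sir2*, 0.695 and 0.715 for *sir2* to WT in G1 and G2, 1.03 for *cdc6-1* and 0.492 for native ChEC. With 50 bases trimmed at each end, the ratios were 0.928 and 0.942 for G1 to G2, 1.04 for *cdc6-1* and 0.447 for native ChEC. The cause was not tested.

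Leaving out each library in turn, the share differences ranged from -14.3 to -13.7 (ChEC minus sonicated), 11.9 to 15.5 (MNase-seq minus sonicated), 26.9 to 30.5 (MNase-seq minus ChEC) and -1.81 to 0.198 (ChEC *sir2* minus *SIR2*, the last without the native *sir2* library). Differences in the coefficient of variation ranged from 15.6 to 17.7, 22.2 to 23.2 and -4.99 to -0.18. The gene start minus the 5S gene ranged from 0.757 to 1.03 in MNase-seq, -0.062 to -0.007 in ChEC and 0.035 to 0.068 in sonicated DNA, and the first minus the last part from 0.143 to 0.173 and 0.101 to 0.118. Designs of 4 against 3 libraries or 5 pairs cannot pass the threshold. No paired analysis was possible because the labels give no replicate numbers that groups share. Libraries that match in arrest, phase or calcium time were set side by side. Depth limits the sonicated profile, and fragment sizes, which the table does not hold, limit what a footprint can be called.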
